A study of Mus musculus with 6 samples.

Results

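Adrenergic receptors and the genes that switch their signal off were examined in brown adipose tissue (BAT), the fat depot that burns fuel to make heat, in mice without KRAP (KO) and in wild-type (WT) mice. The list held 9 genes. They were the receptors Adrb1, Adrb3, Adra1a and Adra2a, the receptor kinases Grk5 and Grk6, the arrestins Arrb1 and Arrb2, and the G protein regulator Rgs2. Members were the probe sets, each a group of short probes for 1 transcript, that the platform annotation gives to 1 of these symbols alone. This rule found 12 of the 45037 probe sets that are not array controls, for 5 of the 9 genes and of the 18193 gene symbols in the annotation. The 4 receptors had no probe set named in the annotation used and are not analysed here. RNA of 3 KO and 3 WT mice was hybridised to Affymetrix mouse genome arrays, with 1 array for each animal. The KO mice were KRAP -/-, with part of the coding exons of KRAP, a protein bound to the actin cytoskeleton, replaced by a neomycin resistance cassette in every tissue. The WT mice were their littermates, and KO 1 and WT 1, KO 2 and WT 2, and KO 3 and WT 3 formed 3 littermate pairs. All animals were 32 weeks old, were fed normal chow and came from a line kept on the C57BL6/J background. That line was moved onto this background by repeated backcrossing, so effects of sequence carried along next to KRAP and of the deletion itself cannot be told apart.

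Noradrenaline from sympathetic nerves drives heat production in BAT mainly through the beta3 receptor, Gs, cyclic AMP and protein kinase A, while alpha1 receptors act through Gq and alpha2 receptors through Gi. A receptor that stays active is phosphorylated by G protein-coupled receptor kinases, and arrestins then bind the phosphorylated tail, uncouple the receptor from its G protein and draw it into the cell. RGS proteins act one step later and speed the return of a G protein alpha subunit to its inactive state. The beta3 receptor is known for lacking most of the phosphorylation sites in its tail that make the other beta receptors sensitive to this loop.

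Each signal below is divided by the median signal of its array, on a linear scale, and the values of a group are listed in the order of pairs 1 to 3. Array medians ranged from 16.5 to 20.4 intensity units. The 22356 probe sets with a mean above 1 on this scale were tested. For KRAP (symbol Itprid2), the 1 named probe set gave 47.0, 35.1 and 41.4 in the KO arrays and 55.3, 56.6 and 42.2 in the WT arrays, and since its position relative to the deleted exons is not known here, it could not check the genotype labels. The samples are labelled as BAT, and 9 of 9 brown adipocyte markers, Ucp1 and Cidea among them, read above the array median on every array, with summed signals of 1952 to 2622 in KO and 1987 to 2661 in WT. Several arrays stood apart. Summed signals of 7 skeletal muscle markers were 632 in KO 2 and 253 in WT 3 against 19.9 to 85.4 on the other arrays. Summed signals of 4 liver markers were 48.6 in KO 3 against 0.846 to 1.77 on the other arrays. The 3' to 5' ratio of the actin control probes, a sign of RNA quality, was 3.80 in WT 2 against 1.91 to 2.58 elsewhere. The part of these differences in the results was not tested. For each member probe set, the range of its log2 difference when any 1 pair is left out stands beside it. The values of other genes are given without such a range. Precision is limited by the number of arrays.

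Rgs2 read higher in KO on 3 of its 4 probe sets, with no overlap between the groups, by 1.71-fold to 2.21-fold. Grk5 read lower in KO by 1.89-fold on 1 probe set without overlap, and by 1.69-fold on the other, where the groups overlapped. Over all 22356 tested probe sets, 4.59% had every KO array above every WT array, and 7.16% had every KO array below. Grk6, Arrb1 and Arrb2 differed by at most 1.42-fold. With the limma test adjusted over all tested probe sets, 0 of the 12 passed, nor did any of the 22356 (0%), so no member is called changed here, and 1911 of the 22356 had an unadjusted limma p under 0.05. The lowest adjusted p was 0.396 among the members and 0.117 over all tested probe sets.

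**Figure D1:**
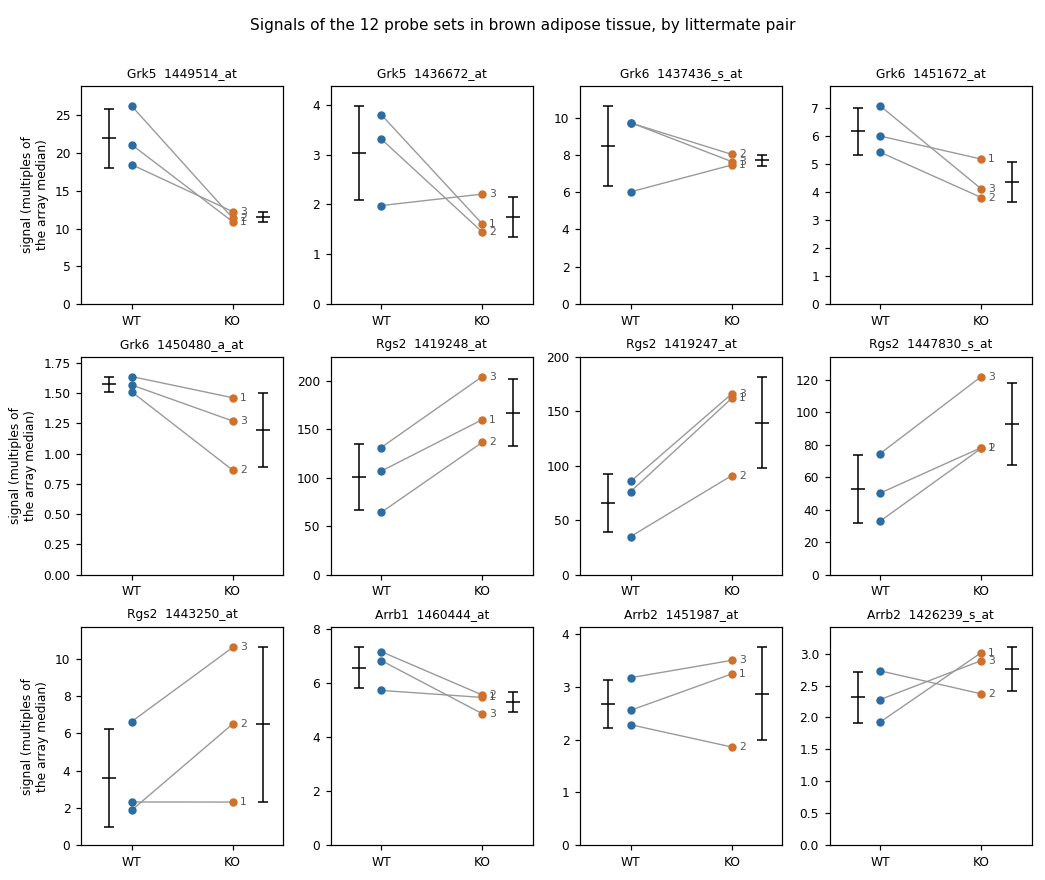
Signal of each of the 12 probe sets in multiples of the array median (vertical axis, linear, from 0) in WT (blue) and KO (orange), with grey lines and numbers joining littermates and bars for the mean and SD of 3 mice. All 3 lines run upwards for Rgs2 probe sets 1419247_at, 1419248_at and 1447830_s_at and downwards for Grk5 probe set 1449514_at.

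Of the receptors, only 2 others on a list of 5 further adrenergic receptors had a named probe set, Adra1b and Adra2c. Adra1b, an alpha1 receptor, had a mean signal of 0.494 of the array median, and the 4 probe sets of Adra2c, an alpha2 receptor, had mean signals of 0.142 to 0.702. All 5 probe sets lay below the level needed for testing. No receptor therefore gave a value that could be compared between KO and WT.

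Grk5 is a kinase that sits at the cell membrane and phosphorylates active receptors without help from G protein beta-gamma subunits. The gene lies on chromosome 19, from 60889560 to 61095968 (GRCm38.p6). Probe set 1449514_at read 10.9, 11.4 and 12.2 in the KO arrays and 21.1, 26.3 and 18.5 in the WT arrays. Every KO array lay below every WT array, and the KO arrays were close to each other. The highest signal was that of WT 2, the array with the highest actin 3' to 5' ratio, and the part of RNA quality in it was not tested. The means were 11.5 ± 0.678 in KO and 22.0 ± 3.96 in WT (SD, n = 3 each). The KO over WT ratio was 0.516, 0.433 and 0.662 in pairs 1 to 3. The log2 difference was -0.92 (95% confidence interval -1.42 to -0.42, limma adjusted p = 0.406) and lay between -1.08 and -0.77 without any 1 pair.

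Probe set 1436672_at of Grk5 read 1.61, 1.44 and 2.21 in the KO arrays and 3.80, 3.31 and 1.97 in the WT arrays. Pairs 1 and 2 were lower in KO, with ratios of 0.423 and 0.436, while pair 3 was not, with a ratio of 1.12, so the groups overlapped. The log2 difference was -0.76 (-1.52 to -0.0053, limma adjusted p = 0.583), and lay between -1.22 (without pair 3) and -0.52 without any 1 pair. The 2 probe sets of Grk5 thus differed in pair 3.

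Grk6 is the closest relative of Grk5 among the kinases examined and is likewise held at the membrane, by a lipid anchor. It lies on chromosome 13, from 55445072 to 55460927 (GRCm38.p6), and was measured by 3 probe sets. Probe set 1451672_at read 5.17, 3.80 and 4.11 in the KO arrays and 5.99, 5.41 and 7.07 in the WT arrays, with every KO array below every WT array and a log2 difference of -0.50 (-0.997 to -0.0079, limma adjusted p = 0.576; -0.65 to -0.36 without any 1 pair). Probe set 1450480_a_at read 1.46, 0.863 and 1.27 in KO and 1.64, 1.51 and 1.57 in WT, again without overlap, with a log2 difference of -0.43 (-0.94 to 0.089, limma adjusted p = 0.644). It lay between -0.56 and -0.23 without any 1 pair, the latter without pair 2, which differed most.

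Probe set 1437436_s_at of Grk6 did not share this pattern. It read 7.45, 8.03 and 7.64 in the KO arrays and 6.01, 9.71 and 9.73 in the WT arrays. The KO arrays lay inside the WT range, since WT 1 was lower than all of them. The log2 difference was -0.10 (-0.63 to 0.42, limma adjusted p = 0.931) and lay between -0.31 and 0.02 without any 1 pair, the latter without pair 3. A lower Grk6 level in KO thus rests on 2 of its 3 probe sets.

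The arrestins Arrb1 and Arrb2 encode beta-arrestin 1 and beta-arrestin 2, which bind phosphorylated receptors and link them to clathrin. Arrb1 lies on chromosome 7, from 99535147 to 99606772, and Arrb2 on chromosome 11, from 70432485 to 70440828 (GRCm38.p6). The 1 probe set of Arrb1, 1460444_at, read 5.46, 5.55 and 4.86 in the KO arrays and 5.72, 7.16 and 6.83 in the WT arrays. Every KO array lay below every WT array, though KO 1 and 2 came close to WT 1. The log2 difference of Arrb1 was -0.31 (-0.78 to 0.17, limma adjusted p = 0.711) and lay between -0.43 and -0.22 without any 1 pair.

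Arrb2 leaned the other way by less. Probe set 1426239_s_at read 3.01, 2.37 and 2.89 in the KO arrays and 1.93, 2.73 and 2.28 in the WT arrays, and probe set 1451987_at read 3.24, 1.86 and 3.50 in KO and 2.56, 2.28 and 3.17 in WT. On both, pairs 1 and 3 were higher in KO and pair 2 was lower, and the groups overlapped. The log2 differences were 0.26 (-0.29 to 0.81, limma adjusted p = 0.804) and 0.06 (-0.45 to 0.57, limma adjusted p = 0.959). Without pair 1 they were 0.07 and -0.08, and without pair 2 they were 0.49 and 0.24. These intervals leave room for a difference of either sign.

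Rgs2 is an RGS protein that acts most strongly on Gq, the G protein of alpha1 receptors, and is also known to lower cyclic AMP production by binding adenylyl cyclase. It lies on the minus strand of chromosome 1, from 143999338 to 144004149 (GRCm38.p6). Since Rgs2 had the lowest adjusted p among the members, its promoter is shown, the 250 bases before the annotated start (RefSeq, GRCm38.p6, chr1:144004150-144004399, minus strand), written 5' to 3' with matches to TGACG on either strand in capitals.
Rgs2 promoter: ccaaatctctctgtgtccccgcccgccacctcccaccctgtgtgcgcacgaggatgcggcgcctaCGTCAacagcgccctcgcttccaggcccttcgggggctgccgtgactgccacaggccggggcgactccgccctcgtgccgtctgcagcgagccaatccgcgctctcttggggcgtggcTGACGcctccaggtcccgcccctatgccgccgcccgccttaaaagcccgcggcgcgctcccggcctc
TGACG forms the core of the cyclic AMP response element, the site bound by CREB, a factor that protein kinase A activates. The window held 2 matches, starting 185 and 67 bases before the start, the first of them on the opposite strand, where it reads CGTCA. The same letters were found in 17.8% of 32851 promoter windows of this length, and the full element TGACGTCA, which contains it, in 1.55% of them but not in that of Rgs2. That 17.8% covers windows with any match, not only those with 2. The windows of Grk5 and Grk6 held no TGACG. That of Grk5 and some of those of Grk6 precede an annotated start that lies inside the gene positions given here, not at their first base. No window was available for Arrb1 or Arrb2. A match to these letters is a description and does not show that a factor binds there.

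Probe set 1419247_at of Rgs2 read 162.1, 91.0 and 166.2 in the KO arrays and 76.3, 34.9 and 85.6 in the WT arrays. Every KO array lay above every WT array, and pair 2 was the lowest pair in both groups. The means were 139.8 ± 42.3 in KO and 65.6 ± 27.0 in WT (SD, n = 3 each), and the KO over WT ratio was 2.12, 2.61 and 1.94 in pairs 1 to 3. The ratios thus varied less between pairs, in relative terms, than the levels did. The log2 difference was 1.14 (95% confidence interval 0.67 to 1.62, limma adjusted p = 0.396) and lay between 1.02 and 1.23 without any 1 pair. Of the 22356 tested probe sets, 46 had an unadjusted p at or below that of this one, itself included.

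Probe set 1419248_at read 159.8, 136.4 and 204.3 in the KO arrays and 106.6, 64.1 and 131.0 in the WT arrays, and probe set 1447830_s_at read 78.2, 77.8 and 122.0 in KO and 50.2, 32.9 and 74.6 in WT. Neither showed overlap between the groups, and on both the ratio was highest in pair 2, at 2.13 and 2.36. The log2 differences were 0.77 (0.28 to 1.26, limma adjusted p = 0.439) and 0.86 (0.35 to 1.37, limma adjusted p = 0.413). Without any 1 pair they lay between 0.61 and 0.87 and between 0.68 and 0.98.

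The fourth probe set of Rgs2, 1443250_at, read 2.31, 6.50 and 10.6 in the KO arrays and 2.31, 1.87 and 6.63 in the WT arrays. Pair 1 showed no difference on it, with a ratio of 0.998, and the groups overlapped. The log2 difference was 0.82 (-0.0019 to 1.65, limma adjusted p = 0.584), but 0.34 without pair 2 and 1.24 without pair 1. The 4 probe sets of 1 gene are not independent measurements, as they read the same 6 RNA samples.

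**Figure D2:**
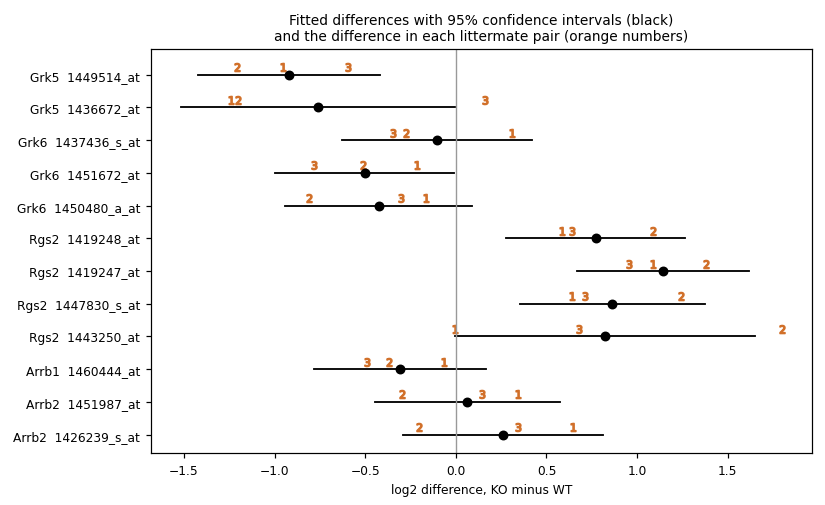
Fitted log2 difference (KO minus WT, horizontal axis) of the 12 probe sets as black points with 95% confidence intervals, and the difference in each littermate pair as an orange pair number. Intervals of Rgs2 probe sets 1419247_at, 1419248_at and 1447830_s_at lie above 0, those of both Grk5 probe sets and of Grk6 probe set 1451672_at lie below 0, and the others include 0.

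Counts over the members are given beside the same counts over all tested probe sets. They are a description, since the members were chosen with earlier results of these data known. An unadjusted limma p under 0.05 was found for 3 of 12 probe sets on the higher side in KO, all of Rgs2, beside 3.41% of all tested probe sets, and for 3 of 12 on the lower side, both of Grk5 and 1 of Grk6, beside 5.14%. The filter named in the methods of the study, a change of 1.5-fold or more in each of the 3 pairs, was met by 2 probe sets of Rgs2 (1419247_at and 1447830_s_at) on the higher side, beside 0.555% of all tested, and by Grk5 probe set 1449514_at on the lower side, beside 0.819%. Just inside it lay Grk5 probe set 1449514_at, with a ratio of 0.662 in pair 3, and just outside it Rgs2 probe set 1419248_at, with a ratio of 1.498 in pair 1. Every KO array lay above every WT array for 3 of 12, all of Rgs2, beside 4.59%, and below for 4 of 12 (Grk5 1449514_at, Grk6 1451672_at and 1450480_a_at, and Arrb1), beside 7.16%. These shares count probe sets, and those of 1 gene read the same transcript in the same mice, though not always with the same result, so they stand for 1 gene on the higher side and at most 3 genes on the lower side. The median log2 difference was -0.02 over the 12, with 6 above and 6 below 0, and -0.05 over all tested probe sets.

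Whether Rgs2 and Grk5 passed the adjusted test depended on the setting. With an intensity trend and a robust prior in limma, the adjusted p was 0.00024, 0.0122 and 0.0068 for Rgs2 probe sets 1419247_at, 1419248_at and 1447830_s_at and 0.0059 for Grk5 probe set 1449514_at. With a pseudocount of 1 in place of the floor on low signals, it was 0.0119 for Rgs2 1419247_at and 0.0487 for Grk5 1449514_at, and with tests restricted to mean signals above 2 it was 0.0412 for Rgs2 1419247_at. No probe set of Grk6, Arrb1 or Arrb2 passed under any of the settings tried. The log2 differences of Rgs2 and Grk5 kept their sign throughout. Only another scaling, the pseudocount or leaving out a pair could move them. Changing the floor, the filter, the prior or the pair block leaves a member's log2 difference as it is.

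**Figure D3:**
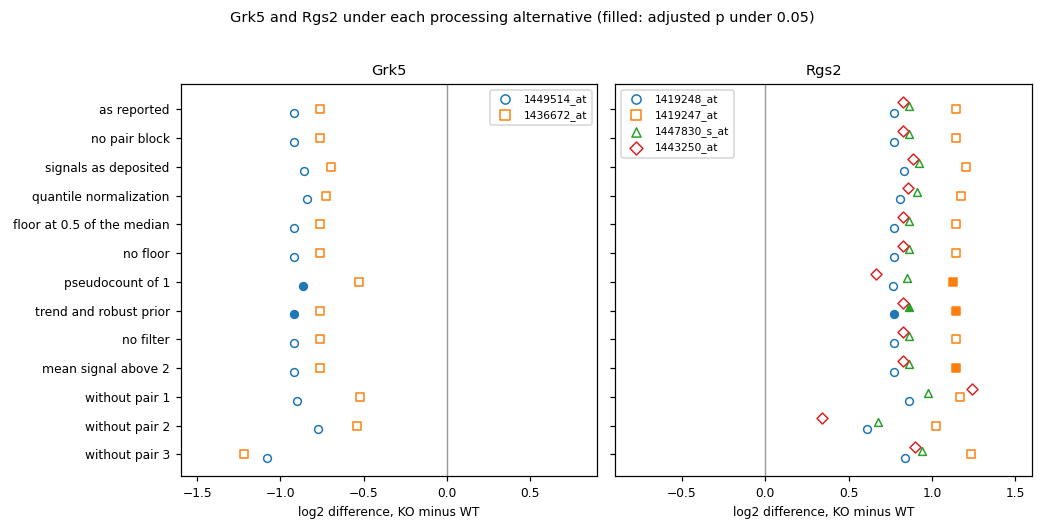
Log2 difference (KO minus WT, horizontal axes) of the 2 Grk5 and 4 Rgs2 probe sets as reported and under 12 other settings (vertical axis), filled where the adjusted p was under 0.05. All Grk5 points lie below 0 and all Rgs2 points above 0, and points are filled for Rgs2 under 3 settings and for Grk5 under 2.

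Of the sympathetic nerve and Schwann cell markers, 7 of 9 were measured and 3 were tested, with a median log2 difference of 0.28. These 3 did not share a direction. S100b, a gene of Schwann cells that adipocytes also express, read 22.6, 14.9 and 20.1 in the KO arrays and 49.1, 71.7 and 43.1 in the WT arrays (log2 difference -1.50, limma adjusted p = 0.396). Sox10, which defines Schwann cells, read 2.61, 2.44 and 1.74 in KO and 2.33, 1.99 and 1.31 in WT, higher in KO in 3 of 3 pairs (log2 difference 0.28, limma adjusted p = 0.716). Slc18a2, which loads noradrenaline into vesicles, read 0.429, 1.81 and 1.22 in KO and 0.292, 0.466 and 1.79 in WT, higher in KO in 2 of 3 pairs (log2 difference 0.65, limma adjusted p = 0.720). The summed signal of the 7 markers, 21.6 to 29.7 in KO and 48.7 to 76.0 in WT, was mostly that of S100b. Th, which makes the noradrenaline precursor, and the transporter Slc6a2 had mean signals too low to be tested, as did Dbh and Npy. The white adipocyte markers Lep, Nnat and Sncg were also lower in KO in 3 of 3 pairs, while Retn was higher, and 4 of 6 markers of this cell type were tested. Smooth muscle and pericyte markers, from cells that also carry adrenergic receptors, summed to 63.8 to 70.5 in KO and 59.8 to 70.0 in WT, and the 6 endothelial markers to 44.5 to 48.2 and 47.1 to 64.2. The part of these cell types in the Grk5 and Rgs2 values was not tested. In whole tissue, fewer cells of a type and less RNA per cell cannot be told apart.

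Of 60 further genes of adrenergic signalling on 7 lists, 54 had a named probe set and 42 were tested, each on its brightest probe set. An unadjusted limma p under 0.05 was found for 0 of 42 on the higher side, beside 3.41% of all tested probe sets, and for 0 of 42 on the lower side, beside 5.14%. The 1.5-fold filter in 3 pairs was met by 0 of 42, and 0 passed the adjusted test. Their median log2 difference was -0.03, with a range from -0.44 for Rgs4 to 0.35 for Akap5, a scaffold that holds protein kinase A near receptors. All probe sets of Rgs2 and Grk5 had values outside this range, while those of Arrb1 and Arrb2 and 2 of the 3 of Grk6 had values inside it. This is a description only, since members and lists were chosen with earlier results of these data known. It also sets every member probe set against only the brightest of each other gene. The differences between genes were not tested. The 9 other RGS genes tested had a median of -0.18. Rgs5, an RGS protein of pericytes, read 166.4, 132.9 and 135.0 in the KO arrays and 183.6, 197.5 and 159.9 in the WT arrays, lower in KO in 3 of 3 pairs (log2 difference -0.32, limma adjusted p = 0.702). The 1 other receptor kinase tested, Grk3, had a log2 difference of -0.21 (-0.81 to 0.40, limma adjusted p = 0.869).

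Among 11 G protein subunits tested, with a median of -0.16, Gnas, which encodes the Gs alpha subunit downstream of beta receptors, had a log2 difference of 0.09 (-0.39 to 0.57, limma adjusted p = 0.936). Gnaq, which encodes the Gq alpha subunit that Rgs2 acts on, had one of -0.40 (-0.91 to 0.12, limma adjusted p = 0.663). The 15 genes of receptor trafficking and scaffolds had a median of 0.07 and the 4 alpha arrestins and related genes one of -0.03, with Arrdc3, known to bind beta receptors, at 0.13 (-0.56 to 0.82, limma adjusted p = 0.939). Of the catecholamine-degrading oxidases, Maoa was at -0.26 and Maob at 0.08.

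**Figure D4:**
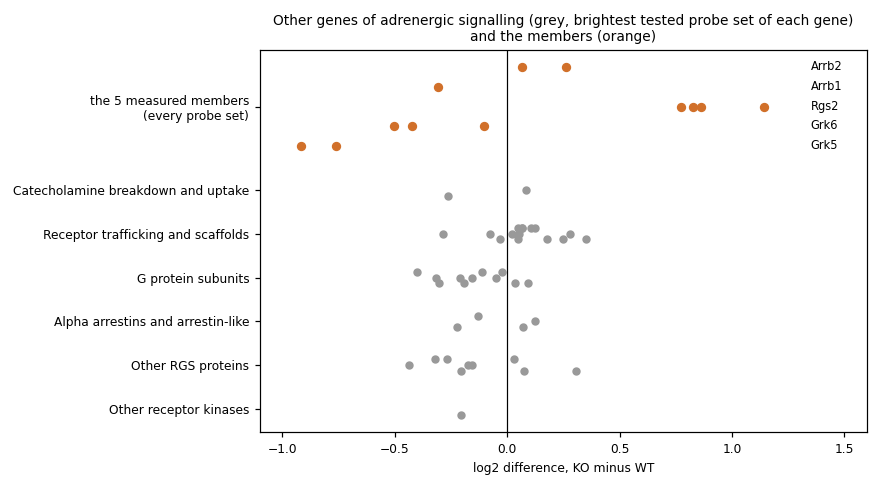
Log2 difference (KO minus WT, horizontal axis) of the 12 probe sets of the 5 measured genes (orange, by gene) and of 42 other genes of adrenergic signalling on their brightest tested probe set (grey, by list). The grey points lie between -0.44 and 0.35, and all Rgs2 and Grk5 points and 1 Grk6 point (-0.50) lie outside that range.

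The genes whose level followed Rgs2 most closely over the 6 arrays were named by the Pearson correlation of log2 signals with probe set 1419248_at, the brightest of Rgs2. They were Per3, a component of the circadian clock (r = 0.990), Gdap10 (0.985), Atg14, which starts autophagosome formation (0.981), 3110009E18Rik (0.977) and Lrrc9 (0.971). All of the points come from the same 6 arrays and include the difference between KO and WT, so these values are a description without a test. Per3 read 3.37, 3.29 and 3.80 in the KO arrays and 3.03, 2.31 and 3.17 in the WT arrays, with pair 2 lowest in both groups, as for Rgs2.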

How the data were processed

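Total RNA from BAT of 3 KO and 3 WT littermates had been hybridised by the authors to Affymetrix arrays, 1 for each animal, with no pooling stated. Per the labels, GCOS gave the intensity of each probe set, and the authors deposited it on a linear scale. The version, algorithm and scaling target were not given in the sources used here. After 64 control probe sets had been set aside, intensities were divided by their array's median, raised to 0.25 where lower, and put on the log2 scale. The test covered probe sets whose mean scaled signal exceeded 1, 22356 of 45037, all 12 members among them, and no member signal lay below the floor.

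The model, fitted in R 4.3.3 with lmFit and eBayes of limma 3.58.1, held genotype and a term for the littermate pair, and tests were two-sided with Benjamini-Hochberg adjustment at 0.05 over all tested probe sets. A fold is 2 raised to the log2 difference. The labels describe pairs of littermates, and the matching of KO and WT mice by number follows the comparisons named in the methods of the study. The correlation of arrays' deviations from their group means was 0.446 within pair 1, 0.0847 within pair 2, 0.160 within pair 3 and -0.359 to 0.281 across pairs. Fits were tested on simulated data with planted differences.

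In the platform annotation, 34945 probe sets carried 1 symbol, 932 several and 9160 were unlisted, and only those with 1 symbol were named. Gene positions and promoters are from RefSeq tables for GRCm38.p6, while the build of the array design was not used. The members, gene lists and tests were chosen with earlier results of these data known. Named were every member probe set, listed genes with an unadjusted p under 0.05 or at 1.5-fold in 3 pairs, of which there were none, the 5 genes most like Rgs2, and KRAP. The other pathway genes, array controls and markers given with values were chosen after their values were seen. Alternatives were other scalings, floors, a pseudocount, filters, priors, no pair block and leaving out each pair.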

Additional observations from a re-analysis of the deposited data

How the results depend on the processing

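Over all probe sets, 0 passed the adjusted test as reported, with no pair block, on undivided signals, with quantile normalization, with another floor or none, without the filter, and without pair 2 or pair 3. The count was 40 with mean signals above 2, 123 with a pseudocount of 1 and 311 with a robust prior that follows intensity, while leaving out 1 pair gave 0 to 255, the highest without pair 1. Without the pair block, the log2 difference of Rgs2 probe set 1419247_at stays at 1.14 by design, since all pairs are complete. Its limma adjusted p was then 0.797, and no member changed its call.

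The members at 1.5-fold in all pairs numbered 3 as reported, 2 with signals as deposited or quantile normalization (Rgs2 1447830_s_at no longer met it), 0 at a fold of 2, and 3 to 5 when 1 pair was left out, 5 of them without pair 1. With a pair left out, the filter asks for fewer pairs, so this count could rise but not fall. Of 143 alternative values of member probe sets, 134 kept their sign and side of the threshold, 7 passed it in addition, and 2 changed sign, Arrb2 1451987_at at -0.076 without pair 1 (-0.076 to 0.24 without any 1 pair) and Grk6 1437436_s_at at 0.017 without pair 3 (-0.31 to 0.017). Changes of the floor, filter, prior or pair block could not change a sign, since they leave a member's log2 difference as it is. The causes were not tested.

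The scaling moved the median log2 difference of all tested probe sets from -0.05 to 0.01 with signals as deposited and to 0.0011 with quantile normalization. With 3 pairs, an exact sign-flip test of 1 probe set cannot go below 0.25, so calls rest on the spread that limma shares across probe sets. Dixon's outlier test was not applied to groups of 3.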
